A study of Mus musculus with 8 samples.

Results

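The 10 genes described here, Gdf15, Pmaip1, Cdkn1a, Btg2, Mdm2, Bax, Ccng1, Trp53inp1, Sesn2 and Bbc3, are established targets of the transcription factor p53. They were taken by symbol from the TPM table of the whole series, 10 of 23401 genes. TPM is transcript abundance per length, scaled to the same total in every library. RNA was sequenced from mouse astrocytes in a culture that the labels call MGS, with libraries described as soft, and in a second culture named CV, with libraries described as hard. RNA was taken at day 5 and at day 32 of either culture, which gives 4 groups of 2 libraries and 8 libraries in all. The labels give no strain, genotype, age of the animals or added agent for any group, and they do not spell out MGS.

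p53 is held at a low level by the ubiquitin ligase Mdm2, which is itself a p53 target, which closes a feedback loop. When DNA damage, ribosomal stress or other stress frees p53, it binds response elements made of paired half-sites and raises genes for cell cycle arrest, apoptosis, metabolic restraint and its own control. Rodent cells taken into culture are known to engage p53 and its activator p19Arf as they are kept on plastic. Several of these genes also answer to other factors, as Gdf15 and Sesn2 do to ATF4.

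The aligned sequence, inferred from the most common ratio of coverage to FPKM, was 3.90 and 4.36 gigabases for MGS and 2.99 and 2.50 for CV at day 5. At day 32 it was 4.69 and 4.61 gigabases for MGS and 2.98 and 2.15 for CV. Replicates of a group differed, as the SD of their log2 ratio across genes, by 0.191 and 0.197 in MGS and 0.321 and 0.465 in CV at day 5 and day 32, so CV at day 32 was the noisiest group. Summed TPM of 8 astrocyte markers was 16822 to 17005 in MGS and 3413 to 3605 in CV at day 5, and 13675 to 13709 against 1426 to 1826 at day 32. Of these 8, 5 were called higher and 1 lower in MGS at day 5, and 7 and 1 at day 32. Their median log2 fold change was 0.67 at day 5 and 3.30 at day 32. Summed TPM of 13 microglia markers was 1124 to 1148 in MGS and 55.4 to 56.0 in CV at day 5, and 1370 to 1396 in MGS against 16903 to 18115 in CV at day 32. Markers of oligodendrocytes (6 of 6) and of meningeal fibroblasts (6 of 6) were called higher in MGS at both days, and 4 of 4 endothelial markers at day 5 and 2 of 4 at day 32. Of 4 neuronal markers, 2 were called higher and 1 lower in MGS at day 5, and 2 higher at day 32. Over all genes, 22.5% were called higher and 26.4% lower in MGS at day 5, and 52.8% and 14.8% at day 32. The cultures therefore differed in cell type markers as well as in the p53 targets, and the part of these markers in the results below was not tested. In bulk RNA, fewer cells of a type and less RNA per cell cannot be told apart.

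Promoters are shown for the 4 targets, of those searched, whose 250 bases before the start hold a match to the p53 half-site consensus. That of Btg2, the only target called higher in MGS at day 5, is shown as well. The sequences are those of RefSeq on GRCm38.p6, written in the direction of the gene, with the matches in capitals. The windows are chr17:29090729-29090978 on the plus strand for Cdkn1a, chr10:117710759-117711008 on the minus strand for Mdm2, chr7:45466899-45467148 on the minus strand for Bax, chr11:40755287-40755536 on the minus strand for Ccng1 and chr1:134079156-134079405 on the minus strand for Btg2.
Cdkn1a: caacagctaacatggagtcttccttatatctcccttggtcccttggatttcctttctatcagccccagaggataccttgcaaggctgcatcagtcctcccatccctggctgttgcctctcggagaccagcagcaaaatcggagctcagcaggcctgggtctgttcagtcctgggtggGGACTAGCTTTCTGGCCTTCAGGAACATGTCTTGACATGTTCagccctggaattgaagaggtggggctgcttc
Mdm2: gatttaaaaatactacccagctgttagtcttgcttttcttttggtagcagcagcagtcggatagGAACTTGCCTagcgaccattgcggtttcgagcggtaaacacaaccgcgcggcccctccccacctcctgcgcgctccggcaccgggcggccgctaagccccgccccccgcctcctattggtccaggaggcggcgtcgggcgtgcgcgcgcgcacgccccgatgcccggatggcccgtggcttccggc
Bax: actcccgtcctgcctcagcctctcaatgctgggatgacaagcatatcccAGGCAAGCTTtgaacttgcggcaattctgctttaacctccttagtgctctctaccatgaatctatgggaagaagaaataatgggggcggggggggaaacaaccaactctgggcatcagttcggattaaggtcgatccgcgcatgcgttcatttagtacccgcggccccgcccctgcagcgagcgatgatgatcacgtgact
Ccng1: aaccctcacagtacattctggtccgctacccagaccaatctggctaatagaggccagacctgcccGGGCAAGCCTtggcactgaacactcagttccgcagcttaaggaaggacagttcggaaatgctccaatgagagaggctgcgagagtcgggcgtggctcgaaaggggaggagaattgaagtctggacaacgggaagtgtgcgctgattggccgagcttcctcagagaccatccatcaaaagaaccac
Btg2: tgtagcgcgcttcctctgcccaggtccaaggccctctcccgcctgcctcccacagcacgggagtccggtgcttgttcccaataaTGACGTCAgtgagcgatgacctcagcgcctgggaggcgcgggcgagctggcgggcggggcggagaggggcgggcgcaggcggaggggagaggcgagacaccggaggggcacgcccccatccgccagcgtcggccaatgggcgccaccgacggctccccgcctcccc

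The capitals in Mdm2, Bax and Ccng1 mark matches to the p53 half-site consensus of 10 bases, searched on both strands. Those in Cdkn1a mark the whole span of its overlapping full sites, including bases between half-sites and a mismatched base. Those in Btg2 mark TGACGTCA, the palindromic cAMP response element. Half-sites were found in 4 of the 8 targets with a promoter searched, against 7.13% of all 32851 promoter windows of this length. Gdf15, Cdkn1a and Bbc3 had more than 1 RefSeq start, so targets were counted by gene, while the share is by window. Cdkn1a alone held a full site, taken as half-sites no more than 13 bases apart with at most 1 mismatch outside the core, which 0.356% of all windows held. Its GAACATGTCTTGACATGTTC lies 51 to 32 bases before the start, and a second match that uses the same half-site begins 73 bases before it. A further RefSeq start of Cdkn1a lies 2783 bases downstream of the deposited one, and the window before it held no match. The half-site began 186 bases before the start in Mdm2, 201 in Bax and 185 in Ccng1. The cAMP response element of Btg2 lies 166 to 159 bases before the start, and 1.55% of windows held one. TGATGNAA, the ATF4 motif, was found in no window of these 8 targets and in 3.45% of all windows. A match is a description of letters, and known p53 sites in introns or farther upstream lie outside these windows. No promoter of Pmaip1 or Trp53inp1 was searched, so whether either holds a match was not tested. The RefSeq start of Gdf15 lies 460 bases from the deposited one.

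The first question was how the cultures differed at day 5. The RNA of 8 of the 10 targets was lower in MGS than in CV, led by the secreted factor Gdf15 and the apoptosis gene Pmaip1. The antiproliferative gene Btg2 was higher in MGS, and Bbc3 did not pass the test. With limma on log2(TPM + 1) and Benjamini-Hochberg adjustment over 14904 genes, 9 of 10 targets were called at an adjusted p under 0.05, where 48.9% of all genes tested were called. The 8 lower calls stand beside 26.4% of all genes called lower, and the 1 higher call beside 22.5% called higher. The libraries of the cultures did not overlap for any of the 10 targets, as for 83.6% of all genes. The median log2 fold change was -1.60 for the targets and -0.14 for all genes tested. The labels do not say that replicates came from separate cultures, so p-values here rest on a spread between libraries that may be only technical.

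**Figure D1:**
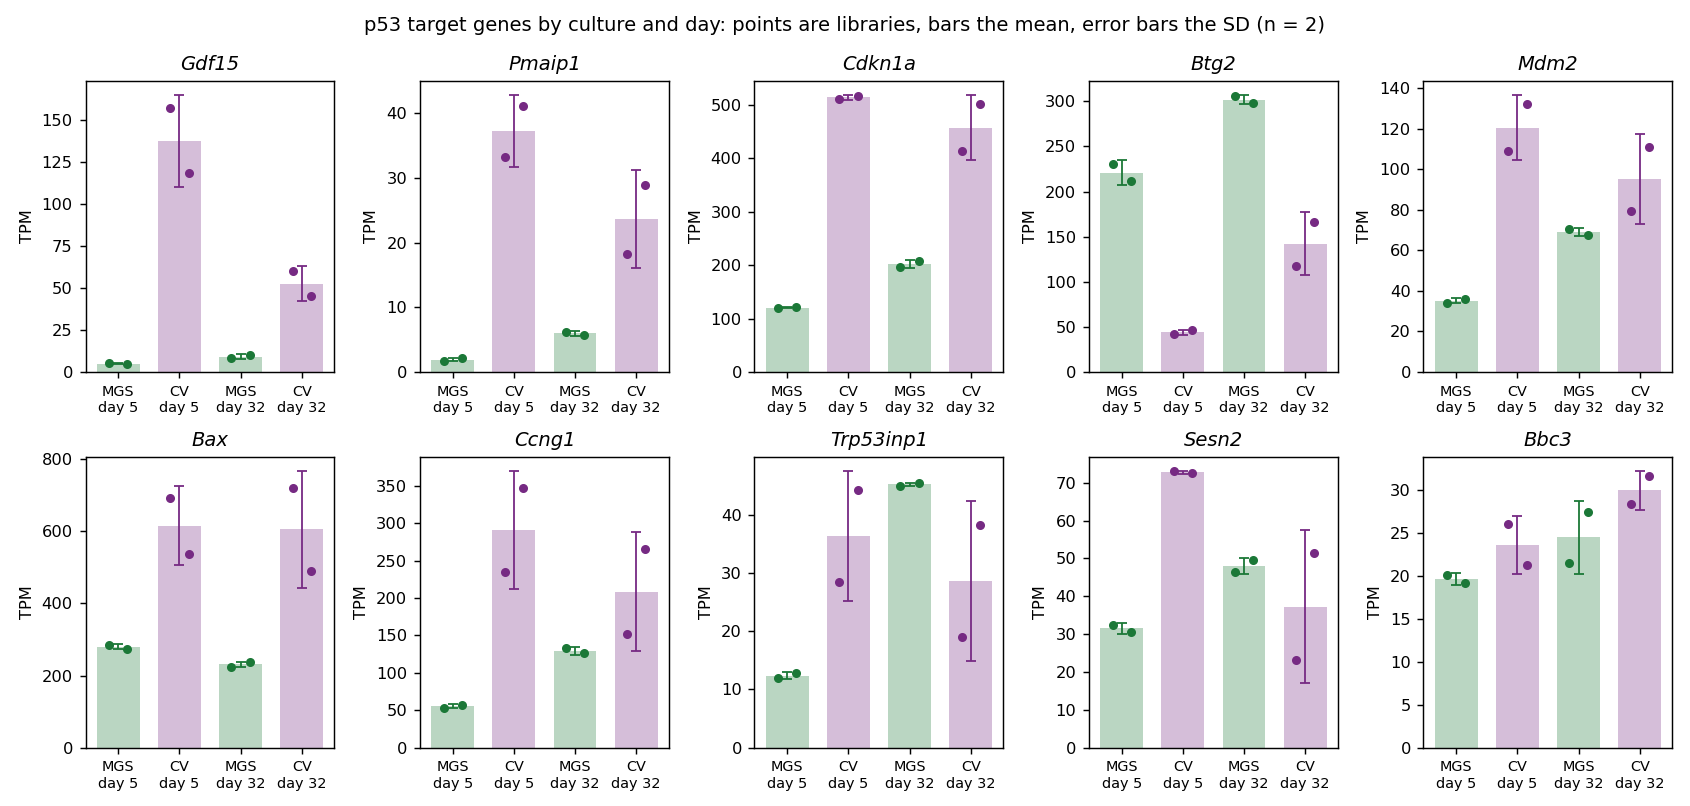
TPM of each of the 10 p53 targets (vertical axis, starting at 0) in the 4 groups of culture and day. Points are the 2 libraries of a group, bars the mean and error bars the SD; Gdf15 stands at 4.70 to 5.37 TPM in MGS and 118 to 157 TPM in CV at day 5, while Btg2 is highest in MGS.

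Among the genes of cell cycle arrest, Cdkn1a encodes p21, an inhibitor of cyclin-dependent kinases, on chromosome 17 (29090986 to 29100722, plus strand, mm10). Its TPM was 120.3 and 121 in MGS and 511 and 517 in CV at day 5, and 197 and 207 in MGS and 414 and 501 in CV at day 32. Every CV library stood above every MGS library. The mean was 4.26 times as high in CV as in MGS at day 5 and 2.26 times at day 32. The log2 fold change of MGS against CV was -2.08 ± 0.11 (SE; limma, adjusted p = 8.14e-06) at day 5 and -1.17 ± 0.11 (limma, adjusted p = 8.56e-05) at day 32. Both were called under all 20 alternative settings, in which the day 32 value ran from -1.80 to -0.82. The deposited FPKM of Cdkn1a was 3.425 to 3.43 times what its coverage and the library's depth give, against 1 to 1.005 times for the other targets. This ratio was nearly the same in all 8 libraries, so it touches the level of Cdkn1a relative to other genes and not its change between libraries.

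Ccng1 encodes cyclin G1, a p53 target that acts with Mdm2 in the control of p53, on chromosome 11 (40748552 to 40755286, minus strand). Its TPM was 53.6 and 57.7 in MGS and 235 and 347 in CV at day 5, and 133 and 126 in MGS and 152 and 265 in CV at day 32. The cultures did not overlap at either day, but the CV library nearest to MGS at day 32 stood close to it. MGS against CV gave a log2 fold change of -2.34 ± 0.27 (limma, adjusted p = 0.000356) at day 5 and -0.63 ± 0.27 (limma, adjusted p = 0.0724) at day 32. The day 32 value became -1.03 without CV day 32 replicate 1, the lower of the CV libraries. Over all 20 alternatives it ran from -1.26 to -0.23.

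Btg2, on chromosome 1 (134074865 to 134079155, minus strand), encodes an antiproliferative cofactor of mRNA deadenylation and is both a p53 target and an immediate early gene. Its TPM was 231 and 211 in MGS and 42.4 and 46.3 in CV at day 5, and 306 and 298 in MGS and 117 and 167 in CV at day 32. Every MGS library stood above every CV library, the reverse of Cdkn1a. The mean was 4.98 times as high in MGS as in CV at day 5 and 2.13 times at day 32. Its log2 fold change was 2.29 ± 0.16 (limma, adjusted p = 3.21e-05) and 1.10 ± 0.16 (limma, adjusted p = 0.000854), called under all 20 alternatives at each day. The day 32 value fell to 0.47 with median-of-ratios scaling, where the median of all genes went from 0.56 to -0.0021. Immediate early genes as a list were also higher in MGS at day 5, with 16 of 21 called higher and 2 lower. The shares of all genes were 22.5% and 26.4%. Nr4a1, an orphan nuclear receptor of that list, had means of 419 TPM in MGS and 34.3 TPM in CV at day 5 and 321 TPM and 13.2 TPM at day 32. The AP-1 subunit Fosb had 129 TPM and 2.93 TPM at day 5 and 143 TPM and 17.4 TPM at day 32. Both genes were called higher at both days, with log2 fold changes of 3.57 and 4.51 for Nr4a1 (limma, adjusted p = 9.61e-07 and 7.06e-07) and 5.05 and 3.02 for Fosb (limma, adjusted p = 5.24e-06 and 3.84e-05). At day 32, 16 of 21 genes of the list were called higher and 1 lower, beside 52.8% and 14.8% of all genes. With median-of-ratios scaling the counts were 12 and 5.

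Of the genes of apoptosis, Pmaip1 encodes Noxa, a BH3-only protein that neutralises Mcl1, on chromosome 18 (66458604 to 66465558, plus strand). Its TPM was 1.73 and 2.11 in MGS and 33.3 and 41.2 in CV at day 5, and 6.21 and 5.73 in MGS and 18.3 and 28.9 in CV at day 32. It was the lowest of the 10 targets in every MGS library. The difference was a log2 fold change of -3.71 ± 0.23 (limma, adjusted p = 1.81e-05) at day 5 and -1.78 ± 0.23 (limma, adjusted p = 0.000468) at day 32, called under all 20 alternatives at each day, with day 32 values from -2.68 to -1.47. On the TPM scale the means differed 19.4-fold at day 5 and 3.95-fold at day 32, and the fold on the log2(TPM + 1) scale is smaller because of the added 1.

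Bax, the pore-forming member of the BCL2 family, lies on chromosome 7 (45461695 to 45466898, minus strand). Its TPM was 284 and 274 in MGS and 692 and 538 in CV at day 5, and 225 and 236 in MGS and 720.1 and 491 in CV at day 32. Its difference between the cultures was about as large at both days. The log2 fold change was -1.12 ± 0.19 (limma, adjusted p = 0.00245) at day 5 and -1.36 ± 0.19 (limma, adjusted p = 0.000662) at day 32, and both held in all 20 alternatives, with day 32 values from -1.99 to -0.88. The difference between these was -0.24 ± 0.27 (limma, adjusted p = 0.464), and it turned to 0.72 (limma, adjusted p = 0.000957) with adjustment for the length and GC content of transcripts.

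Bbc3 encodes Puma, the other BH3-only protein among the targets, on chromosome 7 (16309583 to 16318334, plus strand). Its TPM was 20.1 and 19.2 in MGS and 26.03 and 21.3 in CV at day 5, and 21.5 and 27.5 in MGS and 28.4 and 31.6 in CV at day 32. The cultures did not overlap within a day, but all 8 values lay within a narrow range. Neither difference passed the test, with a log2 fold change of -0.25 ± 0.17 (limma, adjusted p = 0.256) at day 5 and -0.29 ± 0.17 (limma, adjusted p = 0.164) at day 32. The day 32 difference passed the test with FPKM (-0.64, limma, adjusted p = 0.00851), median-of-ratios scaling (-0.90, limma, adjusted p = 0.00368) and quantile normalization (-0.92, limma, adjusted p = 0.00292).

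Of 12 other genes of the BCL2 family, 5 were called higher and 3 lower in MGS at day 5. The shares of all genes were 22.5% and 26.4%. Bcl2l1, which encodes the survival protein Bcl-xL, fell with Bax (log2 fold change -1.07 ± 0.09; limma, adjusted p = 8.53e-05). Bmf and Bcl2l11, which encode the BH3-only proteins Bmf and Bim, were higher in MGS by 2.41 ± 0.17 (limma, adjusted p = 3.27e-05) and 0.98 ± 0.17 (limma, adjusted p = 0.00235) on the log2 scale. The median of the list at day 5 was 0.09, and -0.29 with the correction for length and GC content. At day 32 the counts were 5 higher and 2 lower, beside 52.8% and 14.8% of all genes. With quantile normalization they were 1 higher and 5 lower, so the balance of this list turned with the scaling.

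Mdm2, the ubiquitin ligase that holds p53 down, lies on chromosome 10 (117688905 to 117710716, minus strand). Its TPM was 34.3 and 36.2 in MGS and 109 and 132 in CV at day 5, and 70.3 and 67.5 in MGS and 79.5 and 111 in CV at day 32. The gap between the cultures was wide at day 5 and narrow, without overlap, at day 32. MGS against CV gave a log2 fold change of -1.74 ± 0.17 (limma, adjusted p = 0.00016) and then -0.44 ± 0.17 (limma, adjusted p = 0.053). The day 32 value became -0.68 without CV day 32 replicate 1 and -1.07 (limma, adjusted p = 6.4e-05) with median-of-ratios scaling. Over all 20 alternatives it ran from -1.07 to -0.20.

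Trp53inp1 encodes a nuclear protein that promotes p53 activity, cell death and autophagy, on chromosome 4 (11156441 to 11174377, plus strand). Its TPM was 11.9 and 12.8 in MGS and 28.5 and 44.3 in CV at day 5, and 45.0 and 45.4 in MGS and 18.9 and 38.3 in CV at day 32. In TPM the order of the cultures thus turned between the days, although the day 32 difference of Trp53inp1 did not pass the test. Its log2 fold change was -1.45 ± 0.32 (limma, adjusted p = 0.00836) at day 5 and 0.72 ± 0.32 (limma, adjusted p = 0.0823) at day 32. The day 5 difference kept its direction but missed the threshold without MGS day 5 replicate 1 (-1.40; limma, adjusted p = 0.0545) or CV day 5 replicate 2 (-1.14; limma, adjusted p = 0.0636). The day 32 value was 1.21 without CV day 32 replicate 2, and over all 20 alternatives it ran from 0.11 to 1.21.

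Sesn2 encodes sestrin 2, which restrains mTORC1 when amino acids are short, on chromosome 4 (132492807 to 132510456, minus strand). Its TPM was 32.5 and 30.5 in MGS and 73.1 and 72.5 in CV at day 5, and 46.5 and 49.5 in MGS and 23.1 and 51.5 in CV at day 32. The CV libraries at day 32 lay on both sides of the MGS libraries. The log2 fold change was -1.18 ± 0.31 (limma, adjusted p = 0.0173) at day 5. The day 5 replicates lay close together, and with 1 of these 4 libraries left out the value stayed between -1.23 and -1.14. The adjusted p (limma) then missed the threshold, at 0.0728 and 0.0899 without MGS replicate 1 and 2 and at 0.0668 and 0.0783 without CV replicate 1 and 2. It was 2.54e-05 without either of the noisier CV day 32 libraries. At day 32 it was 0.46 ± 0.31 (limma, adjusted p = 0.223), and it was -0.10 without CV replicate 1, 1.02 (limma, adjusted p = 7.9e-05) without CV replicate 2 and -0.16 with median-of-ratios scaling.

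Gdf15, a stress-induced hormone of the TGF-beta superfamily that acts on the hindbrain, lies on chromosome 8 (70629394 to 70631635, minus strand) and differed most. Its TPM was 5.37 and 4.70 in MGS and 157 and 118 in CV at day 5, and 8.29 and 10.1 in MGS and 59.9 and 45.3 in CV at day 32. The means differed 27.3-fold at day 5 and 5.73-fold at day 32, with every CV library above every MGS library. The difference was a log2 fold change of -4.51 ± 0.20 (limma, adjusted p = 3.86e-06) and -2.39 ± 0.20 (limma, adjusted p = 5.12e-05), called under all 20 alternatives at each day. Gdf15 stood at the 51.42 and 53.04 percentiles of all genes by TPM in the MGS libraries and at the 92.9 and 95.1 percentiles in the CV libraries at day 5.

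ATF4 and unfolded protein response genes, a stress list that shares regulation with Gdf15 and Sesn2, were split at day 5. Of the 22, 6 were higher and 7 lower in MGS, beside 22.5% and 26.4% of all genes. Nupr1, a stress-induced chromatin protein, had means of 136 TPM in MGS and 15.6 TPM in CV at day 5. Slc7a11, the cystine transporter, had 38.5 TPM and 6.03 TPM at day 5 and 67.4 TPM and 5.72 TPM at day 32. Nupr1 (log2 fold change 3.05 ± 0.12; limma, adjusted p = 2.16e-06) and Slc7a11 (2.51 ± 0.20; limma, adjusted p = 5.16e-05) were thus higher in MGS at day 5, opposite to Gdf15, while Mthfd2, a mitochondrial folate enzyme, was lower (log2 fold change -1.89 ± 0.16; limma, adjusted p = 6.91e-05). At day 32 the list held 8 higher and 5 lower, beside 52.8% and 14.8% of all genes. With median-of-ratios scaling it held 4 higher and 12 lower.

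At day 32 fewer targets differed between the cultures. Gdf15, Pmaip1, Cdkn1a and Bax remained lower in MGS and Btg2 remained higher, 5 of 10 called where 67.6% of all genes tested were called. The 4 lower calls stand beside 14.8% of all genes called lower and the 1 higher call beside 52.8% called higher. The libraries of 9 targets did not overlap between cultures, as for 84.4% of all genes. The median log2 fold change was -0.54 for the targets and 0.56 for all genes, a difference of -1.09. With median-of-ratios scaling, which brought the median of all genes to -0.0021, the median of the targets was -1.16 and 8 of 10 were called. The microglia markers given above were highest in CV at day 32, and their part in this comparison was not tested.

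**Figure D2:**
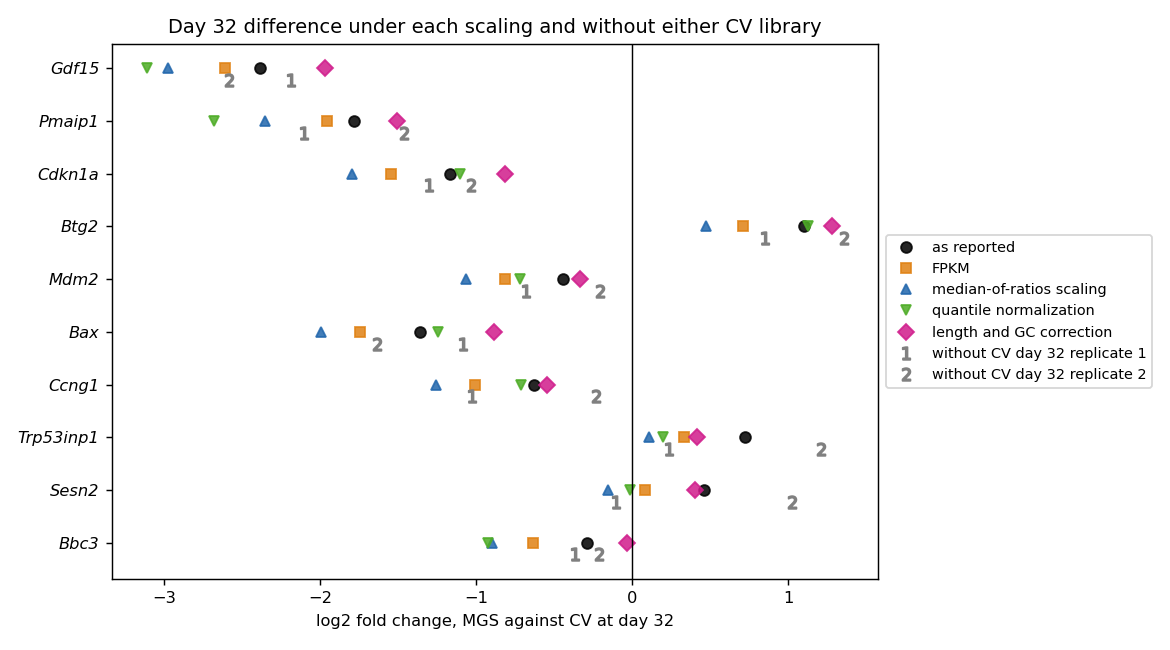
Log2 fold change of MGS against CV at day 32 (horizontal axis) for each target as reported, under 4 other scalings or corrections, and without either CV library (digits 1 and 2). Gdf15, Pmaip1, Cdkn1a and Bax stay below 0 and Btg2 above 0 in every setting drawn, while Sesn2 lies on both sides of 0 (-0.16 to 1.02).

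The next question was what changed with time in each culture. In MGS, 6 targets rose from day 5 to day 32 and 0 fell with limma, and at an unadjusted p under 0.05 the counts were 7 and 0. The 6 called stand beside 42.5% of all genes called, and beside 35.0% called higher and 7.53% called lower. Trp53inp1 rose by 1.79 ± 0.32 on the log2 scale (limma, adjusted p = 0.0052), Pmaip1 by 1.26 ± 0.23 (limma, adjusted p = 0.00584), Ccng1 by 1.20 ± 0.27 (limma, adjusted p = 0.0119) and Mdm2 by 0.95 ± 0.17 (limma, adjusted p = 0.00527). Gdf15 rose by 0.75 ± 0.20 (limma, adjusted p = 0.0229) and Cdkn1a by 0.74 ± 0.11 (limma, adjusted p = 0.0023). The other 4 did not pass, at 0.59 for Sesn2 (limma, adjusted p = 0.16), 0.45 for Btg2 (limma, adjusted p = 0.0601), 0.30 for Bbc3 (limma, adjusted p = 0.188) and -0.28 for Bax (limma, adjusted p = 0.27). The days did not overlap for any of the 10 targets, as for 88.6% of all genes. The median was 0.74 for the targets and 0.36 for all genes.

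With 1 MGS library left out, these rises kept their size, while fewer genes of any kind were called. Ccng1 stayed between 1.15 and 1.25 and missed the threshold without each of the 4 MGS libraries (limma, adjusted p = 0.0601 to 0.0786). Gdf15 stayed between 0.62 and 0.88 and also missed it each time (limma, adjusted p = 0.0673 to 0.143). Pmaip1 missed it narrowly without MGS day 5 replicate 1 (1.17; limma, adjusted p = 0.0556) or MGS day 32 replicate 1 (1.21; limma, adjusted p = 0.0514). The scaling moved Gdf15 more, to 0.46 with FPKM, 0.37 with median-of-ratios scaling and 0.16 with quantile normalization (limma, adjusted p = 0.153, 0.311 and 0.593). Cdkn1a was 0.31 (limma, adjusted p = 0.0518) with median-of-ratios scaling.

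Trp53inp1 and Mdm2 were called under all 20 alternatives, with Mdm2 between 0.52 and 0.99. Calls were also gained: Btg2 was called higher in 7 of the 20 alternatives and Sesn2 in 4. Both were called when the MGS libraries were fitted alone (limma, adjusted p = 0.000508 for Btg2 and 0.000252 for Sesn2). Bbc3 was called with the correction for length and GC content (0.73; limma, adjusted p = 0.0159). Bax was called in opposite directions. It was higher with that correction (0.22; limma, adjusted p = 0.0414) and lower when the MGS libraries were fitted alone (-0.28; limma, adjusted p = 0.00178). In each of these 2 settings 9 targets were called, against 6 as reported.

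In CV, Btg2 rose and Gdf15, Sesn2 and Pmaip1 fell, 4 called where 53.7% of all genes were called. The 1 higher call stands beside 16.0% of all genes called higher and the 3 lower calls beside 37.7% called lower. Btg2 rose by 1.64 ± 0.16 on the log2 scale (limma, adjusted p = 0.000223) and Gdf15 fell by 1.37 ± 0.20 (limma, adjusted p = 0.00146), each called under all 20 alternatives. Sesn2 fell by 1.05 ± 0.31 (limma, adjusted p = 0.0253), and the value was -1.05 and -1.06 without CV day 5 replicate 1 and 2, although it then missed the threshold (limma, adjusted p = 0.0855 and 0.101). Pmaip1 fell by 0.66 ± 0.23 (limma, adjusted p = 0.0469) and lost its call in 13 of 20 alternatives, over all of which it ran from -0.98 to -0.28. The 6 others did not pass, between -0.50 for Ccng1 (limma, adjusted p = 0.152) and 0.34 for Bbc3 (limma, adjusted p = 0.13). The days overlapped for Mdm2, Bax, Ccng1 and Trp53inp1, and 6 targets did not overlap, as for 72.1% of all genes. Without CV day 32 replicate 2, Ccng1 (-0.90; limma, adjusted p = 0.00748), Trp53inp1 (-0.87; limma, adjusted p = 0.0136), Mdm2 (-0.59; limma, adjusted p = 0.00495) and Cdkn1a (-0.31; limma, adjusted p = 0.00673) were also called lower, 7 in all. Bbc3 was called higher with FPKM (0.57), median-of-ratios scaling (0.72) and quantile normalization (0.62; limma, adjusted p = 0.018, 0.0134 and 0.0211).

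**Figure D3:**
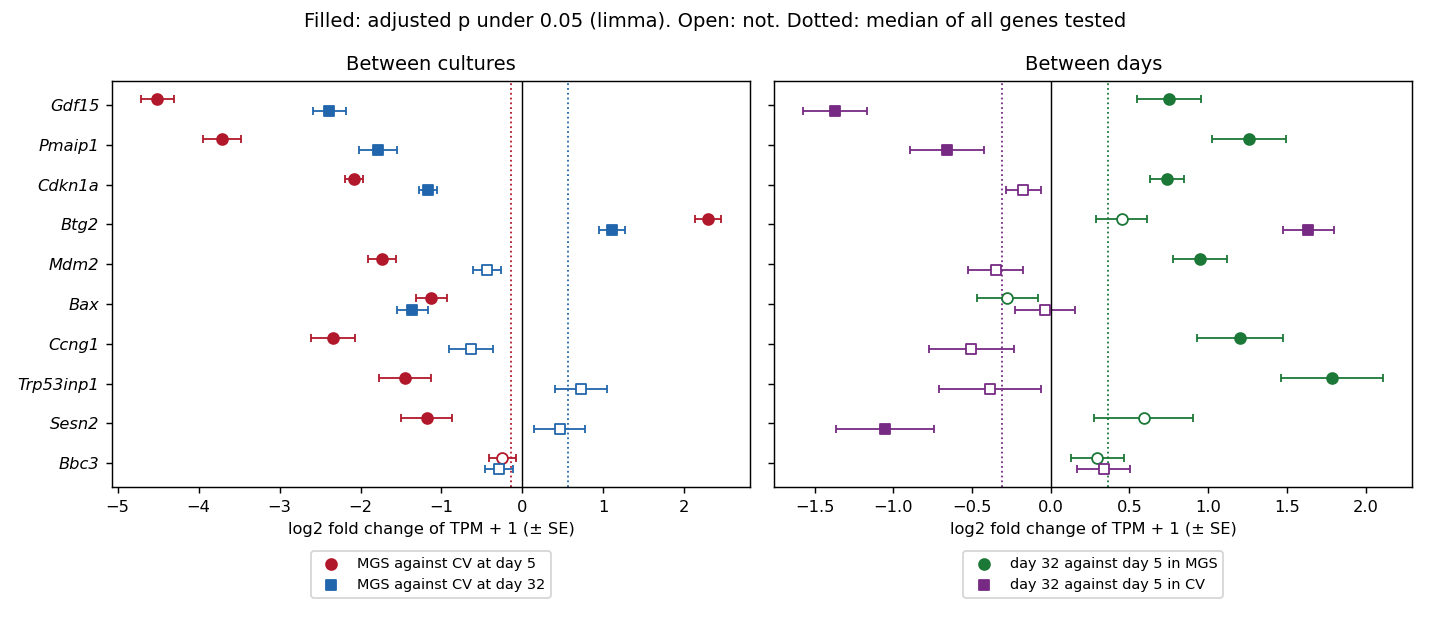
Log2 fold change with its SE (horizontal axis) of each target between cultures (left) and between days (right). Filled points passed the test, open points did not, and dotted lines are the medians of all genes tested (-0.14 at day 5 and 0.56 at day 32 on the left); Gdf15 lies at -4.51 at day 5 and -2.39 at day 32.

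The interaction, the difference between the cultures at day 32 minus that at day 5, was called for 8 of 10 targets, where 62.0% of all genes were called. It was positive for 7 targets, beside 49.7% of all genes, and negative for Btg2, beside 12.3%. It was 2.17 ± 0.46 for Trp53inp1 (limma, adjusted p = 0.0058), 2.12 ± 0.29 for Gdf15 (limma, adjusted p = 0.000989) and 1.92 ± 0.33 for Pmaip1 (limma, adjusted p = 0.00266) on the log2 scale. For Btg2 it was -1.19 ± 0.23 (limma, adjusted p = 0.00426). For each of these 4 genes the call held in all 19 alternatives, as it did for Mdm2 (1.298) and Ccng1 (1.71). The sizes moved more than the calls: over the alternatives they reached down to 0.48 for Mdm2, 0.88 for Ccng1, 1.06 for Pmaip1, 1.31 for Gdf15 and 1.37 for Trp53inp1, and to -2.01 for Btg2. The median of all genes went from 0.65 to -0.067 with median-of-ratios scaling. Bbc3 (-0.04 as reported) was called negative with median-of-ratios scaling (-0.84; limma, adjusted p = 0.0261) and quantile normalization (-0.84; limma, adjusted p = 0.0247). The counts of positive and negative calls were then 5 and 2, and 7 and 2. For all of the 8 but Trp53inp1 and Sesn2 the difference kept its sign at day 32 and was smaller there than at day 5. The call of Cdkn1a (0.91 ± 0.16; limma, adjusted p = 0.00253) was lost with median-of-ratios scaling, which gave 0.085 (limma, adjusted p = 0.643). That of Sesn2 (1.64 ± 0.44; limma, adjusted p = 0.0151) missed the threshold with median-of-ratios scaling (0.83; limma, adjusted p = 0.0523). It was 1.60 without MGS day 5 replicate 2 or MGS day 32 replicate 2 and just missed it (limma, adjusted p = 0.0525 and 0.0531).

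By level, Bax and Cdkn1a ranked first or second among the targets in every CV library, with the limit on the level of Cdkn1a given above. Btg2 ranked second in the MGS libraries at day 5, first in those at day 32 and seventh in CV at day 5. Summed over the 10 targets, TPM was 795 and 770 in MGS and 1907 and 1877 in CV at day 5, and 1058 and 1073 in MGS and 1632 and 1730 in CV at day 32. Neighbours in the order often overlapped: at day 5 in CV, Gdf15 at 118 and 157 TPM overlapped Mdm2 at 109 and 132 TPM.

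The RNA of Trp53, which encodes p53, differed little between the cultures in TPM. Its TPM was 125 and 119 in MGS and 111 and 119 in CV at day 5, and 92.9 and 93.0 in MGS and 78.3 and 98.3 in CV at day 32. In TPM the cultures overlapped at both days. MGS against CV gave a log2 fold change of 0.08 ± 0.13 at both days (limma, adjusted p = 0.617 and 0.578). The medians of all genes were -0.14 at day 5 and 0.56 at day 32. Median-of-ratios scaling divides the day 32 libraries by 1.26 and 1.267 in MGS and by 0.7083 and 0.936 in CV. The small day 32 difference and the overlap of Trp53 therefore depend on the TPM scale. Protein and its modification, by which p53 is mainly regulated, were not measured.

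In a list of 16 genes of p53, its relatives and its regulators, 2 were called higher and 5 lower in MGS at day 5. The shares of all genes were 22.5% and 26.4%. Hipk2, a kinase that phosphorylates p53, had means of 3.65 TPM in MGS and 11.7 TPM in CV at day 5, and 22.3 TPM and 2.91 TPM at day 32. Its log2 fold change was -1.43 ± 0.20 (limma, adjusted p = 0.000924) and then 2.59 ± 0.20 (limma, adjusted p = 3.21e-05). At day 32, 9 of the list were called higher and 1 lower, beside 52.8% and 14.8% of all genes. With median-of-ratios scaling the counts were 8 and 6. Mdm4, the partner of Mdm2 that binds and inhibits p53, had 13.1 and 14.1 TPM in MGS and 11.9 and 20.5 TPM in CV at day 5, and 55.8 and 56.6 TPM in MGS and 4.14 and 8.55 TPM in CV at day 32. The day 32 groups lay far apart (log2 fold change 3.03 ± 0.33; limma, adjusted p = 0.000178), where those of Mdm2 nearly met.

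Cdkn2a, the locus of p16 and of p19Arf, an inhibitor of Mdm2, ran the other way. Its TPM was 7.86 and 6.01 in MGS and 22.8 and 15.3 in CV at day 5, and 26.7 and 36.4 in MGS and 201 and 148 in CV at day 32. CV at day 32 stood above every other group. Its log2 fold change was -1.32 ± 0.26 (limma, adjusted p = 0.00444) at day 5 and -2.43 ± 0.26 (limma, adjusted p = 0.000155) at day 32. Trp73, which encodes the p53 relative p73, was higher in MGS at day 32, with means of 9.50 and 0.11 TPM (log2 fold change 3.24 ± 0.14; limma, adjusted p = 2.79e-06).

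Of 32 other p53 targets, 31 were tested, with 19 lower and 6 higher calls for MGS at day 5. The shares of all genes were 26.4% lower and 22.5% higher. Aen, an exonuclease that acts in apoptosis, had means of 28.3 TPM in MGS and 126 TPM in CV (log2 fold change -2.12 ± 0.11; limma, adjusted p = 8.65e-06). The death receptor genes Eda2r (-3.02 ± 0.32; limma, adjusted p = 0.00024) and Tnfrsf10b (-1.79 ± 0.19; limma, adjusted p = 0.000219) were also lower. Steap3, a ferrireductase of endosomes, was higher, with means of 89.3 TPM in MGS and 8.005 TPM in CV at day 5 and 124 TPM and 6.76 TPM at day 32 (log2 fold changes 3.33 and 4.02; limma, adjusted p = 1.7e-06 and 8.67e-07). The median of the 31 at day 5 was -0.76, and -0.14 for all genes.

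At day 32, 12 of the 31 were called lower and 6 higher, with a median 0.57 below that of all genes. The shares of all genes were 14.8% lower and 52.8% higher. Lif, a cytokine of the interleukin-6 family (-2.55 ± 0.22; limma, adjusted p = 6.1e-05), Dram1, a lysosomal regulator of autophagy (-1.95 ± 0.18; limma, adjusted p = 6.61e-05), and Rps27l, a ribosomal protein relative (-1.51 ± 0.14; limma, adjusted p = 8.22e-05), were lower in MGS. The split of the list moved with the settings, to 3 higher and 24 lower with median-of-ratios scaling and to 8 and 8 with the correction for length and GC content. Dram1 rose in CV between the days by 2.11 ± 0.18 (limma, adjusted p = 9.01e-05). Microglia markers rose in the same comparison, as did 16.0% of all genes, and a link between these was not tested.

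Genes downstream of p21 were compared as well. All 24 proliferation genes were called lower in MGS at day 5 and 0 higher, with limma, and 0 were higher at an unadjusted p under 0.05. The shares of all genes were 26.4% lower and 22.5% higher. Mki67, a marker of cycling cells, had 24.2 and 24.4 TPM in MGS and 62.8 and 94.3 TPM in CV (log2 fold change -1.62 ± 0.24; limma, adjusted p = 0.00121). The cultures with more Cdkn1a RNA thus also held more RNA of proliferation genes at day 5. At day 32, 14 of 24 were called lower and 0 higher (0 at an unadjusted p under 0.05), and 23 and 0 with median-of-ratios scaling. In the fit as reported, 14.8% of all genes were called lower and 52.8% higher at day 32. Mki67 then had 23.5 and 23.3 TPM in MGS and 16.3 and 24.7 TPM in CV, which overlapped.

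Over time, proliferation genes fell in both cultures, 17 of 24 in MGS and 24 of 24 in CV. In each, 0 were higher by limma and 0 higher at an unadjusted p under 0.05. Of all genes, 7.53% fell and 35.0% rose in MGS, and 37.7% fell and 16.0% rose in CV. Among the 31 other p53 targets, 10 rose and 3 fell in MGS, beside 35.0% and 7.53% of all genes. In CV, 9 rose and 8 fell, beside 16.0% and 37.7% of all genes. These splits turned with the scaling, to 3 and 6 in MGS and 13 and 6 in CV with median-of-ratios scaling, and to 18 and 2 in MGS and 5 and 11 in CV with the correction for length and GC content. Eda2r was among those that rose in MGS (1.81 ± 0.32; limma, adjusted p = 0.00499), with means of 4.65 TPM at day 5 and 18.6 TPM at day 32. In CV, all 13 microglia markers were called higher at day 32 than at day 5.

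At day 5, 26.4% of all genes were called lower in MGS and 22.5% higher. Of 17 other cell cycle inhibitors, cyclin-dependent kinases and G1 cyclins, 11 were lower in MGS and 1 was higher at day 5. The higher one was Cdkn1c, which encodes the inhibitor p57, with means of 281 TPM in MGS and 11.9 TPM in CV (log2 fold change 4.45 ± 0.12; limma, adjusted p = 6.42e-07). Ccnd1, which encodes cyclin D1, had 67.3 TPM and 872 TPM at day 5 and 170.4 TPM and 1344 TPM at day 32 (log2 fold changes -3.67 and -2.96; limma, adjusted p = 2.11e-06 and 4.05e-06). At day 32, 6 were called lower and 5 higher, beside 14.8% and 52.8% of all genes. With median-of-ratios scaling the counts were 10 and 4.

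Genes of DNA damage sensing and repair held 11 of 19 lower and 0 higher at day 5 with limma, with 14 and 0 at an unadjusted p under 0.05. Calls over all genes at day 5 were 26.4% lower and 22.5% higher. Brca1, a tumour suppressor of DNA repair, was among the lower ones (-1.84 ± 0.23; limma, adjusted p = 0.000529). At day 32 the counts of the list were 9 higher and 2 lower, beside 52.8% and 14.8% of all genes. The median of the list was 0.56, as for all genes. With median-of-ratios scaling the counts were 3 higher and 7 lower.

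**Figure D4:**
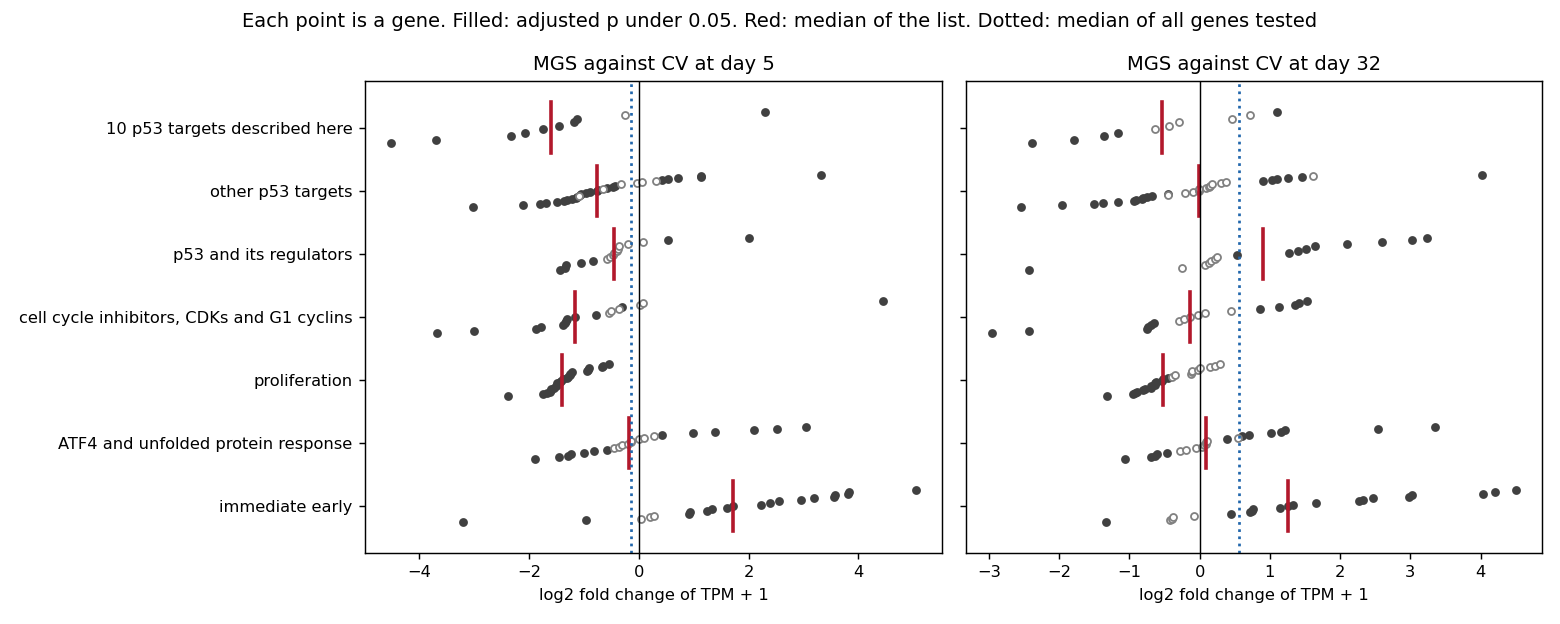
Log2 fold change of MGS against CV (horizontal axis) at day 5 (left) and day 32 (right) for the genes of 7 lists (rows), with 1 point a gene, filled where it passed the test. Red bars are list medians and dotted lines the medians of all genes; at day 5 the 10 targets have a median of -1.60 and proliferation genes -1.41.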

How the data were processed

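RNA of 8 mouse astrocyte libraries was sequenced (TRIzol RNA and an NEB Ultra II directional kit, per the labels' protocols). HISAT2 2.1.0, StringTie 1.3.4d and bcl2fastq are named in the submitters' processing notes. The builds mm10 and hg38 are both named, and the coordinates are mm10. The use of strand was not given in the sources used here, so overlapping and antisense genes are uncertain. The authors deposited TPM, FPKM and coverage per gene and library, per the file headers. FPKM served in an alternative, and coverage served for depth and for the check of FPKM against coverage in the targets. Read counts were not given, so no counting interval is given.

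TPM of rows with 1 gene ID were summed (23420 gene IDs). Genes with at least 1 TPM in at least 2 of 8 libraries were tested, 14904 with all 10 targets among them. limma 3.58.1 in R 4.3.3 fitted 4 group means to log2(TPM + 1), with 4 residual degrees of freedom, trended empirical Bayes moderation and two-sided tests adjusted by Benjamini-Hochberg. Calls needed an adjusted p under 0.05. The script was tested on simulated data. An exact permutation test of 2 libraries against 2 cannot go below p = 0.333, so none was made.

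The targets and the 14 lists beside them were chosen with earlier results of these data known. Ppm1d, Ddit4 and Cdkn2a each stand in more than 1 list. Named genes are the 10 targets, Trp53, Mdm4 and Mki67, and up to 4 called genes of each list per comparison with the largest change and at least 5 TPM in the higher group. Values of some genes that this rule names are not reported here. Alternatives changed the pseudocount (to 0.1), the filter, the scaling, the replicate block, a correction for length and GC content (99.36% of genes had both), and each library in turn.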

Additional observations from a re-analysis of the deposited data

Results flagged for a closer look

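For 8 targets the difference between MGS and CV was not the same at the 2 days, by the interaction term of the limma fit. The log2 fold change of MGS over CV at day 32 minus that at day 5 was 2.17 for Trp53inp1, 2.12 for Gdf15, 1.92 for Pmaip1, 1.71 for Ccng1, 1.64 for Sesn2, 1.298 for Mdm2, 0.91 for Cdkn1a and -1.19 for Btg2. The same measure had a median of 0.65 over all genes tested, and 62.0% of all genes were called. Only Trp53inp1 and Sesn2 among the 8 had a log2 fold change of opposite sign at day 32 (0.72 and 0.46), and neither day 32 value passed the test.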

How the results depend on the processing

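Of the 50 log2 fold changes of single targets, 22 kept their direction and their side of the threshold in every alternative. The 9 targets called at day 5 were 7 to 9 when 1 library was left out, and the day 32 count was 5 to 7. The count called at day 32 rose from 5 to 8 with FPKM, median-of-ratios scaling, quantile normalization, the replicate block, and the block with the length and GC correction. In MGS over time the count was 3 to 8 without 1 library, against 6, and 4 to 9 in the other alternatives. In CV over time it was 2 to 8 without 1 library, against 4, and 8 with the block and correction and 2 when only the CV libraries were fitted. Replicate numbers were shared by all groups. The correlation of replicate deviations was 0.444 between CV at day 5 and CV at day 32, and -0.131 to 0.175 between the other groups. The libraries were not taken as paired, and a pairing of the CV libraries by number was not settled. With the replicate block the count in CV over time was 4, as reported. The cause of these moves was not tested.

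Directions turned, all without a call in the value as reported, as follows. With the length and GC correction, with or without the block, Bax turned to 0.72 in the interaction and 0.22 in MGS over time, and Bbc3 to 0.58 in the interaction. In CV over time, FPKM gave 0.23 for Bax and 0.095 for Cdkn1a, and median-of-ratios scaling gave 0.36 for Bax, 0.22 for Cdkn1a and 0.044 for Mdm2. Median-of-ratios scaling and quantile normalization gave -0.12 and -0.21 for Bbc3 in MGS over time and -0.16 and -0.017 for Sesn2 at day 32. Without 1 library, the interaction ran from -0.51 to 0.037 for Bax and from -0.21 to 0.13 for Bbc3, CV over time from -0.31 to 0.24 for Bax and from -0.87 to 0.10 for Trp53inp1, and the day 32 value of Sesn2 from -0.10 to 1.02.

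Over all genes, 78.0% of calls at day 32 were higher in MGS, 61.3% with FPKM, 50.2% with median-of-ratios scaling and 47.1% with quantile normalization. In MGS over time that share was 82.3%, and 50.3% with median-of-ratios scaling. In CV it was 29.8% and 50.4%, and in the interaction 80.1% and 47.6%. The 7291 genes called at day 5 were 4555 and 4523 without MGS day 5 replicate 1 and 2. In MGS over time the 6335 called were 2455 to 2746 without 1 MGS library, 9723 and 9732 without CV day 32 replicate 1 and 2, and 11596 when only the MGS libraries were fitted. In CV the 7997 called were 4830 without CV day 5 replicate 2 and 3483 when only the CV libraries were fitted. Depth limits low values most, such as Pmaip1 in MGS at 1.73 TPM.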
